A study of Mus musculus with 35 samples.

Results

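The 10 genes described here belong to the WNT system, 5 ligands (Wnt2, Wnt5a, Wnt5b, Wnt9a and Wnt11), 4 secreted antagonists (Sfrp1, Sfrp2, Dkk2 and Dkk3) and Axin2, and their RNA was followed through knockdown and KO of the micropeptide IAMP. They were picked by symbol from the 55487 genes of 4 count tables with 35 libraries, and every one of them was listed in all 4. IAMP is encoded by 4930523C07Rik in mice, and the study asked what its loss does to gene expression in cardiac fibroblasts (CFs). Primary CFs of adult mice, taken as the cells that stuck to the plate after digestion of the heart, were transfected with Scrambled siRNA or with 1 of 2 siRNAs against IAMP (siR-1 and siR-2), and were left untreated, given IL-17 or given TGF-β, with 3 libraries in each of the 9 groups. The labels give 24 h of siRNA and a further 24 h of IL-17, and no times of their own for the untreated and TGF-β cells. Whole hearts came from 4 heterozygous controls (HET) and 4 IAMP-KO mice on the C57BL/6 background, taken at 8 weeks of age without injury. The KO carries a germline frameshift made with Cas9 in every cell type, and the HET controls carry 1 copy of the same allele. Separate cultures or animals behind the CF replicates are not stated, so that p values measure the spread between libraries, which may be technical.

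WNT proteins are secreted lipid-modified ligands that bind Frizzled receptors. With LRP5 or LRP6 as co-receptor they stabilize β-catenin, which then acts with TCF/LEF factors on target genes, and with ROR or RYK receptors they signal without β-catenin. Secreted Frizzled-related proteins (SFRPs) bind the ligands themselves, Dickkopf proteins such as DKK2 bind LRP5 and LRP6, and DKK3 is a divergent relative whose action on the pathway varies with the cell type. AXIN2 is a scaffold of the complex that degrades β-catenin and is itself a widely used β-catenin target gene, so its RNA is often read as a gauge of the pathway. In the heart, WNT genes are known for their roles in development and, in fibroblasts, in the response to injury.

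A CF library held 104139670 to 119232309 estimated counts and a heart 23497027 to 23857313 counts. The targeted gene 4930523C07Rik (chr1:160044382-160080208, plus strand, overlapped by the lincRNA 4930562F07Rik on the other strand) was measured at 22.0 to 25.7 CPM (counts scaled by library size) in untreated Scrambled CFs, at 2.53 to 3.51 CPM in siR-1 cells and at 1.77 to 1.89 CPM in siR-2 cells, and its log2 fold change was between −3.69 and −2.23 in the 6 comparisons with Scrambled. In hearts it was at 15.9 to 18.8 CPM in HET and 15.2 to 17.3 CPM in IAMP-KO mice, and a frameshift is not read from an RNA level. All 10 fibroblast markers were above the floor of 3 read pairs in every CF library. They summed to 11950.0 to 12270.0 CPM in untreated Scrambled cells, 17290.0 to 18160.0 CPM in siR-1 and 16640.0 to 16870.0 CPM in siR-2 cells. The median over these 10 markers moved less than the sum, at log2 fold changes of 0.18 (siR-1) and −0.028 (siR-2) against untreated Scrambled. Single markers went both ways in untreated siR-2 cells, where Col3a1 was higher (log2 fold change 1.45) and Thy1 lower (−1.04). Of the 8 markers of mural or smooth muscle cells, 7 were above the floor in every untreated Scrambled library, at a summed 131.3 to 140.9 CPM, against 77.6 to 84.2 CPM in siR-1 and 61.2 to 73.2 CPM in siR-2 cells. The 8 cardiomyocyte markers summed to 90.2 to 98.0 CPM in untreated Scrambled cells, 42.2 to 47.1 CPM in siR-1 and 27.7 to 32.7 CPM in siR-2 cells. Nearly all of that was Tnnt2, and the other 7 summed to 0.682 to 1.35 CPM in Scrambled cells with Myh6 and Myl3 at 0. The mesothelial or epicardial markers summed to 141.6 to 157.5 CPM in untreated Scrambled cells, 132.7 to 138.9 CPM in siR-1 and 88.4 to 94.0 CPM in siR-2 cells. The 8 endothelial markers summed to 72.5 to 78.7 CPM in the same Scrambled cells, and to 125.3 to 127.1 CPM under TGF-β, and the 8 macrophage markers to 24.4 to 26.0 CPM and 44.8 to 51.7 CPM. Under TGF-β the fibroblast markers summed to 16680.0 to 17510.0 CPM in Scrambled cells, the mural markers to 105.7 to 112.3 CPM, the mesothelial or epicardial markers to 42.0 to 48.8 CPM and the cardiomyocyte markers, again mostly Tnnt2, to 5.29 to 5.98 CPM. Over the 10 fibroblast markers the median log2 fold change of TGF-β against untreated was −0.11 in Scrambled cells. The part of these shifts in the results below was not tested, and in bulk RNA fewer cells of a type and less RNA per cell cannot be told apart.

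Sfrp1 was by far the most abundant member in CFs per length. On the scale of CPM per kb of exon, which allows levels of different genes to be compared, untreated Scrambled CFs held 66.7 ± 2.85 of Sfrp1, 23.1 ± 1.47 of Dkk3 and 7.07 ± 0.286 of Sfrp2 (SD, n = 3). Antagonists thus took the first 3 ranks. The ligands Wnt5a at 2.58 ± 0.207 and Wnt9a at 2.29 ± 0.123 followed, and their libraries overlapped in level. Next came Wnt11 at 0.716 ± 0.11 and Axin2 at 0.620 ± 0.063, which overlapped as well, then Dkk2 at 0.428 ± 0.114, Wnt5b at 0.231 ± 0.031 and Wnt2 at 0.162 ± 0.020. Under TGF-β Dkk3, at 58.9 ± 1.2, ranked above Sfrp1, at 53.1 ± 0.962, in Scrambled CFs. In hearts the order was different, with Dkk3 at 4.96 ± 2.69 in HET mice, Sfrp1 at 1.98 ± 0.340, Wnt9a at 1.92 ± 0.103 and Wnt11 at 1.71 ± 0.125 (CPM per kb, SD, n = 4). Sfrp1 overlapped Wnt9a, and Wnt9a overlapped Wnt11. CFs and hearts were quantified and scaled apart, and no test was made between them.

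**Figure D1:**
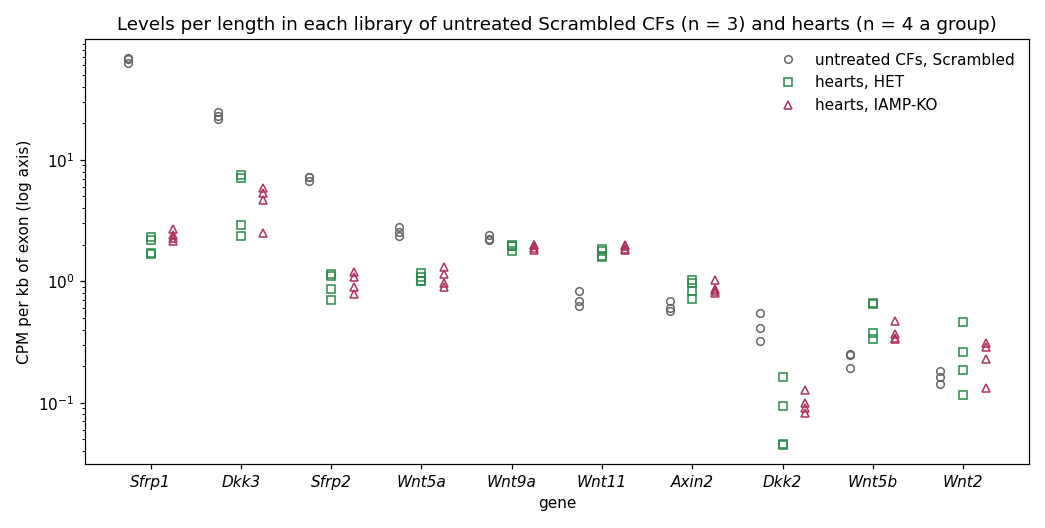
Level of each member in CPM per kb of exon (log axis) in every library of untreated Scrambled CFs (circles, n = 3), HET hearts (squares, n = 4) and IAMP-KO hearts (triangles, n = 4), ordered by the mean level in the CFs. Sfrp1, Dkk3 and Sfrp2 head the CF libraries, and the HET and IAMP-KO hearts overlap for every gene.

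In GRCm38 (GENCODE vM21), Wnt2 spans chr6:17988940-18030585 and Wnt5b chr6:119432531-119544347, both on the minus strand, Wnt9a chr11:59306928-59333552 and Axin2 chr11:108920349-108950783, both on the plus strand, and Wnt11 chr7:98835112-98855195 on the plus and Dkk3 chr7:112116017-112159057 on the minus strand. Wnt5a lies at chr14:28504750-28527448, Sfrp1 at chr8:23411502-23449632, Sfrp2 at chr3:83766321-83774316 and Dkk2 at chr3:132085292-132180304, all on the plus strand, and all 10 are protein-coding. Axin2, Wnt5a and Sfrp2 each overlap an antisense gene (Gm11670, Gm2670 and Gm26771), Wnt5b overlaps Fbxl14 and Wnt11 the pseudogene Gm8398, each on the opposite strand. The strand setting of the counting is not given in the sources used here, so reads of such pairs cannot be told apart.

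Promoter windows of RefSeq (GRCm38.p6, 250 bases before to 50 after a start site) were found for 7 of the 10 members, Wnt2, Wnt5b, Wnt9a, Wnt11, Sfrp2, Dkk2 and Axin2, in 10 windows. The windows of Axin2, Dkk2 and Wnt9a and the first of 2 of Wnt11 are shown, 4 of the 5 members with a window that had called responses to TGF-β or IL-17 in Scrambled CFs (the 3 windows of Wnt5b, the fifth, are left out for length), and they were chosen after the values were seen. Wnt2 and Sfrp2 had called responses to TGF-β in knockdown CFs only, Wnt2 with siR-1 (−1.12) and siR-2 (−1.97) and Sfrp2 with siR-2 (1.08, all log2). The motifs searched, on both strands, were the TCF/LEF core CTTTGA, the core ACGTG of hypoxia response elements and the SMAD box CAGACA, which 5257, 6447 and 6913 of all 32851 windows hold. In the sequences below, which read 5′ to 3′, capitals mark a match. The Axin2 and Dkk2 windows hold none of the 3 motifs as spelled here. Other spellings of the motifs, and sequence outside the windows, were not searched. Counting back from the start site, ACGTG begins at −227 in the Wnt9a window, where it overlaps its own reverse complement, and at −61 in the Wnt11 window, which holds the reverse complement of CTTTGA at −50. Of all 7 members, 2 hold the TCF/LEF core (Wnt5b and Wnt11), 3 hold ACGTG (Wnt5b, Wnt9a and Wnt11) and 1 the SMAD box (Sfrp2), and a match is a run of letters, not a site. Counted by window, as the background is, these are 2, 3 and 1 of the 10 windows.
Axin2, chr11:108920099-108920398, plus strand: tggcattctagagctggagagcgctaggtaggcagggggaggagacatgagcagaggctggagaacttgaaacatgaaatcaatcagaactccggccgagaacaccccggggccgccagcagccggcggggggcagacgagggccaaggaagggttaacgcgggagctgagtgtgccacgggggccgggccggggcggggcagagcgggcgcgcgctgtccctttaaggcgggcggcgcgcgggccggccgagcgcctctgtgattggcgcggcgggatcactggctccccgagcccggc
Dkk2, chr3:132085042-132085341, plus strand: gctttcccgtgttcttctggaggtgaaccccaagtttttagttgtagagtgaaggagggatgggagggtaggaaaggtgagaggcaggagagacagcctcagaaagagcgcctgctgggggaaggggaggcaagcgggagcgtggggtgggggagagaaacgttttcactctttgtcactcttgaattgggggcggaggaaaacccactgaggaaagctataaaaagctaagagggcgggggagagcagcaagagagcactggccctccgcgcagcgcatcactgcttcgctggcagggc
Wnt9a, chr11:59306680-59306979, plus strand: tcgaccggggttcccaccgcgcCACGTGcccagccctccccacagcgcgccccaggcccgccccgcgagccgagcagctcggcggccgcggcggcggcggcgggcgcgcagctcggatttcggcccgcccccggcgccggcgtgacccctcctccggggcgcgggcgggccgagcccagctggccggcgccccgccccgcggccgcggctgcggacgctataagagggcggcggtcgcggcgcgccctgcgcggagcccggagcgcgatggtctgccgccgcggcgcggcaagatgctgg
Wnt11, chr7:98834862-98835161, plus strand: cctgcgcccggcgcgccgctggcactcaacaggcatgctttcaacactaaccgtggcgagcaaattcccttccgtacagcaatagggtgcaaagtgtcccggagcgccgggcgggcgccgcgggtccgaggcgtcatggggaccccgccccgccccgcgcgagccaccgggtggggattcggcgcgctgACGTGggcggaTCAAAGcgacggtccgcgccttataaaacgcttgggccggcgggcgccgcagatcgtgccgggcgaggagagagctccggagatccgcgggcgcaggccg

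Knockdown of IAMP shifted several members in untreated CFs, and Dkk3, 2.18-fold and 2.099-fold lower, was the only member called with both siRNAs in all 3 CF tables. Changes were tested with edgeR over all genes of a table, and a gene is said to rise or fall where the adjusted p was at most 0.05. It is called where, in addition, the absolute log2 fold change was at least 1 in untreated CFs, hearts and comparisons across tables, or the change at least 1.5-fold in the IL-17 and TGF-β tables. By adjusted p alone, 6 of 10 members differed with siR-1 in untreated CFs, 4 up and 2 down, against 39.9% of the 19669 genes tested, and 7 with siR-2, 2 up and 5 down, against 49.3%. With the fold minimum, 2 members were called with siR-1, against 4.76% of all genes, and 2 with siR-2, against 10.7%. The siRNAs also differed from each other, with 2 members called between siR-2 and siR-1, both lower with siR-2, against 6.65%. The median log2 fold change of the members was 0.33 (siR-1) and −0.11 (siR-2), and that of all genes −0.016 and −0.020. Both siRNAs were compared with the same 3 Scrambled libraries in each table.

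Under IL-17 the fold minimum was lower than in untreated CFs, 1.5-fold in place of 2-fold. At 1.5-fold untreated CFs had 6 and 5 members called (siR-1 and siR-2), against 12.1% and 21.1% of all genes. Under IL-17, with siR-1, 8 of 10 differed by adjusted p alone, 5 up and 3 down, against 42.3% of all genes, and 6 were called, 4 up and 2 down, against 13.5%. With siR-2, 8 differed, 2 up and 6 down, against 50.6%, and 5 were called, 2 up and 3 down, against 21.7%. Without siR-2 library 1 or 3 the count was 3. Between siR-2 and siR-1, 4 members were called, all lower with siR-2, against 15.7%. Under TGF-β fewer members moved, 3 with siR-1 and 5 with siR-2 by adjusted p alone, against 23.1% and 29.9%. Of these, 1 was called for siR-1 and 2 for siR-2, against 4.36% and 7.51%, and 1 was called between siR-2 and siR-1, against 3.96%.

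**Figure D2:**
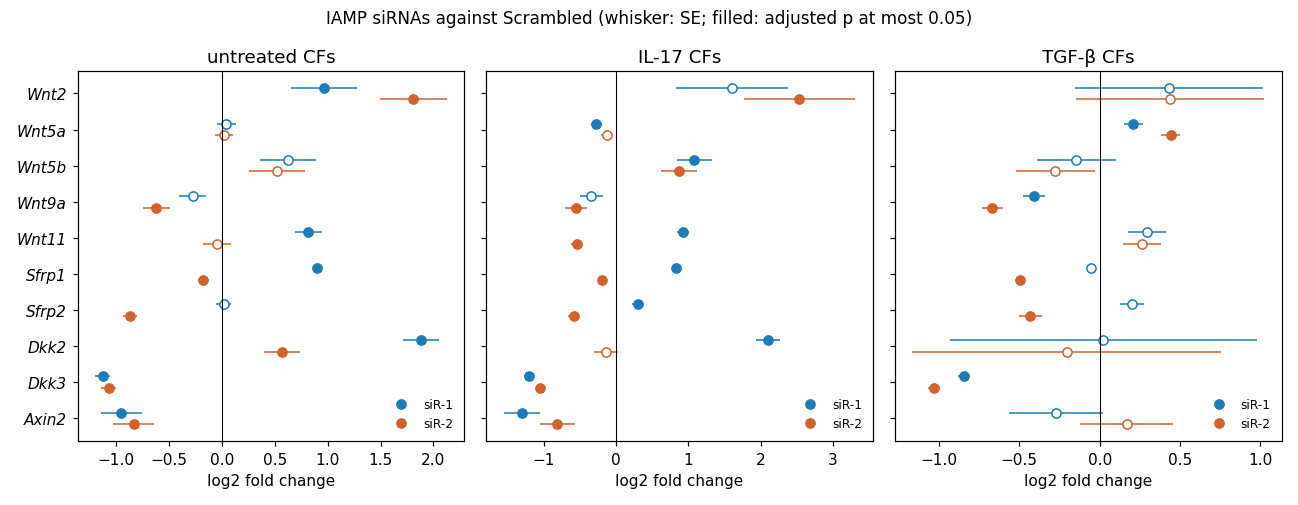
Log2 fold change of each member with siR-1 (blue) and siR-2 (orange) against Scrambled in untreated, IL-17 and TGF-β CFs (3 libraries a group, whiskers are SE, filled points have an adjusted p of at most 0.05). Dkk3 lies near −1 with both siRNAs in the 3 panels, Axin2 is below 0 in the first and second panels and around 0 under TGF-β, and Dkk2 rises with siR-1 to 1.88 and 2.11 in untreated and IL-17 CFs.

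Dkk3, the divergent Dickkopf family member, fell with either siRNA in every CF table. In untreated CFs the Scrambled libraries held 77.1, 73.1 and 82.9 CPM of Dkk3, the siR-1 libraries 40.9, 33.8 and 32.5 CPM, and the siR-2 libraries 36.9, 38.2 and 37.4 CPM. No knockdown library reached a Scrambled one. On the log2 scale Dkk3 fell by 1.13 (SE 0.072) under siR-1 (adjusted p = 1.03e-08) and by 1.07 (SE 0.072) under siR-2 (adjusted p = 8.03e-09), which is more than 2-fold in either case. Under IL-17 Scrambled CFs held 69.2 to 74.8 CPM, siR-1 CFs 28.6 to 33.4 CPM and siR-2 CFs 33.8 to 37.9 CPM, with log2 fold changes of −1.21 ± 0.059 and −1.05 ± 0.059. Under TGF-β, where the Scrambled libraries stood at 195.4 to 202.4 CPM, they were −0.85 ± 0.036 and −1.03 ± 0.036. The siR-2 libraries of Dkk3 lay above the siR-1 libraries under IL-17 (adjusted p = 0.0304) and below them under TGF-β (adjusted p = 0.000973), by 0.16 and −0.19 on the log2 scale.

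Dkk2, which blocks LRP5 and LRP6, separated the siRNAs. For Dkk2, untreated Scrambled libraries held 1.53, 2.035 and 1.195 CPM, siR-1 libraries 6.08, 5.71 and 5.84 CPM and siR-2 libraries 2.60, 2.22 and 2.32 CPM. Each siR-1 library was above every other. The rise with siR-1 was 1.88 ± 0.17 on the log2 scale (adjusted p = 1.35e-07), that with siR-2 0.57 ± 0.17 (adjusted p = 0.0103), and siR-2 was 1.32 ± 0.17 lower than siR-1 (adjusted p = 4.56e-06). Under IL-17 Scrambled CFs held 1.02 to 1.11 CPM, siR-1 CFs 4.16 to 5.16 CPM and siR-2 CFs 0.860 to 1.06 CPM. The log2 fold change with siR-1 was 2.11 ± 0.16 there, that with siR-2 was −0.14 ± 0.17 (adjusted p = 0.517), and siR-2 against siR-1 stood at −2.25 ± 0.17. Under TGF-β the gene was close to the floor of 18 estimated counts in every group, with 8 to 43 estimated counts in Scrambled, 0 to 51 in siR-1 and 15 to 22 in siR-2 libraries, and no difference was detectable at this depth.

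Sfrp1, a secreted Frizzled-related protein, also rose with siR-1 and not with siR-2. Its untreated Scrambled libraries held 295.6, 277.5 and 301.3 CPM, siR-1 libraries 577.5, 512.4 and 552.9 CPM and siR-2 libraries 251.9, 253.4 and 279.8 CPM. The siR-1 libraries stood clear of the rest, while siR-2 and Scrambled overlapped. Sfrp1 rose by 0.90 ± 0.051 (log2) under siR-1 (adjusted p = 3.66e-09), just under the minimum of 1, and its siR-2 value was −0.17 ± 0.050 (adjusted p = 0.00969). Under IL-17 the values were 0.83 ± 0.030 (siR-1) and −0.19 ± 0.030 (siR-2). Under TGF-β Scrambled CFs held 228.2 to 236.6 CPM, siR-1 CFs 220.9 to 228.9 CPM and siR-2 CFs 161.4 to 167.1 CPM, with log2 fold changes of −0.052 ± 0.032 (adjusted p = 0.288) and −0.50 ± 0.032 (adjusted p = 2.74e-09). Sfrp1 was lower with siR-2 than with siR-1 in all 3 tables, by 1.08, 1.02 and 0.45 on the log2 scale (untreated, IL-17 and TGF-β).

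Sfrp2, its relative, fell with siR-2. Sfrp2 was at 14.5, 15.5 and 15.7 CPM in untreated Scrambled libraries, and siR-1 libraries held 16.1, 15.6 and 14.7 CPM and siR-2 libraries 8.41, 8.68 and 8.26 CPM. Only the siR-2 libraries stood apart from Scrambled. The log2 fold change with siR-2 was −0.87 ± 0.069 in untreated CFs (adjusted p = 1.24e-08), −0.59 ± 0.076 under IL-17 (adjusted p = 3.60e-06) and −0.43 ± 0.074 under TGF-β (adjusted p = 0.000242). That under IL-17 was just past the 1.5-fold minimum and fell short of it, at −0.58, with RLE size factors, with DESeq2 and without the low-count filter. It also fell short without Scrambled library 2 or siR-2 library 1 or 3, reaching −0.55. With siR-1 the values were 0.016 ± 0.067, 0.30 ± 0.075 and 0.20 ± 0.074, of which that under IL-17 passed (adjusted p = 0.00359).

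Among the ligands, Wnt11, which signals mainly without β-catenin, followed siR-1. Untreated Scrambled libraries held 2.57, 3.46 and 2.85 CPM, siR-1 libraries 5.33, 5.05 and 5.34 CPM and siR-2 libraries 2.89, 2.95 and 2.88 CPM. The siR-1 libraries were above all others, and the siR-2 libraries lay within the Scrambled range. The rise with siR-1 was 0.82 ± 0.13 on the log2 scale (adjusted p = 6.98e-05), against −0.048 ± 0.13 with siR-2 (adjusted p = 0.811). Under IL-17 Scrambled CFs held 6.35 to 7.16 CPM, siR-1 CFs 12.3 to 13.4 CPM and siR-2 CFs 4.53 to 4.78 CPM. Here Wnt11 rose by 0.92 ± 0.082 with siR-1 and fell by 0.54 with siR-2 (SE 0.084, adjusted p = 2.93e-05), and it was 2.76-fold lower with siR-2 than with siR-1. Under TGF-β the values of 0.29 ± 0.12 and 0.27 ± 0.12 did not pass (adjusted p = 0.0915 and 0.112).

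Wnt9a, a ligand known from joint and blood development, was lower with siR-2. Untreated Scrambled libraries held 8.09, 7.34 and 7.43 CPM, siR-1 libraries 7.29, 5.12 and 6.58 CPM and siR-2 libraries 5.24, 5.57 and 4.27 CPM. Neither knockdown group overlapped Scrambled, though siR-1 library 1 came close. Wnt9a fell by 0.62 (SE 0.13) on the log2 scale under siR-2 (adjusted p = 0.000645), and its siR-1 value was −0.27 ± 0.13 (adjusted p = 0.106). Under TGF-β, where Scrambled CFs held 22.6 to 23.0 CPM, siR-1 CFs had 16.6 to 17.7 CPM and siR-2 CFs 13.0 to 15.2 CPM, and Wnt9a fell with siR-1 (−0.41 ± 0.066, adjusted p = 0.000186) and with siR-2 (−0.67 ± 0.067, adjusted p = 6.07e-07). Under IL-17 the siR-2 value was −0.56 ± 0.16 (adjusted p = 0.00609) and that of siR-1 −0.34 ± 0.15 (adjusted p = 0.0903).

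Wnt5a, the archetype of a ligand that acts without β-catenin, was the ligand with the highest mean per length in untreated Scrambled CFs, and its untreated groups overlapped. Untreated Scrambled libraries held 20.0, 21.9 and 18.7 CPM, siR-1 libraries 22.3, 18.2 and 22.2 CPM and siR-2 libraries 18.4, 21.6 and 22.2 CPM. The log2 fold changes were 0.043 ± 0.086 and 0.019 ± 0.086 (adjusted p = 0.757 and 0.888). Under IL-17 Wnt5a fell with siR-1 by 0.27 (SE 0.072, adjusted p = 0.00503), and under TGF-β it rose with siR-1 by 0.21 ± 0.059 (adjusted p = 0.0153) and with siR-2 by 0.44 ± 0.059 (adjusted p = 1.74e-05). Wnt5b, its close relative, was scarce, at 0.517 to 0.670 CPM in untreated Scrambled CFs, 0.740 to 1.22 CPM in siR-1 and 0.794 to 0.985 CPM in siR-2 cells. Either knockdown group lay above Scrambled and the 2 knockdown groups overlapped, and the values of 0.62 ± 0.26 and 0.52 ± 0.26 against Scrambled did not pass (adjusted p = 0.0725 and 0.119). Under IL-17 Wnt5b was called with both, at 1.08 ± 0.24 with siR-1 (adjusted p = 0.00155) and 0.87 ± 0.24 with siR-2 (adjusted p = 0.00628), and under TGF-β the values were −0.14 ± 0.24 and −0.28 ± 0.24 (adjusted p = 0.762 and 0.466).

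Wnt2, a ligand of the β-catenin branch known from heart and lung development, had the lowest level per length in untreated Scrambled CFs, and its calls against Scrambled, both with siR-2, were rises. Untreated Scrambled libraries held 0.364, 0.409 and 0.321 CPM, siR-1 libraries 1.10, 0.562 and 0.483 CPM and siR-2 libraries 1.14, 1.32 and 1.44 CPM. In estimated counts these were 40 to 49, 54 to 125 and 132 to 165. The siR-2 libraries were the highest, and 1 siR-1 library approached them. Wnt2 rose by 1.81 ± 0.32 with siR-2 (adjusted p = 0.000122) and by 0.97 ± 0.32 with siR-1 (adjusted p = 0.0216), and the siR-1 value was 0.51 without siR-1 library 1. It passed the minimum of 1 without Scrambled library 2 or siR-1 library 2 or 3, reaching 1.185. Under IL-17 1 Scrambled library held 0 and the others 24 and 33 estimated counts, against 92 to 116 with siR-2 and 37 to 68 with siR-1, and the log2 fold changes were 2.54 ± 0.77 with siR-2 (adjusted p = 0.0186) and 1.61 ± 0.77 with siR-1 (adjusted p = 0.130). The siR-2 call was lost without Scrambled library 3 or any 1 of the siR-2 libraries, where the value ranged from 1.95 to 3.20 over all libraries left out. Under TGF-β the 9 libraries held 6 to 54 estimated counts, and the groups overlapped.

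Axin2, the β-catenin target gene, fell with both siRNAs in untreated and IL-17 CFs. Untreated Scrambled libraries held 3.80, 3.32 and 3.12 CPM, siR-1 libraries 1.32, 1.95 and 2.04 CPM and siR-2 libraries 2.37, 1.86 and 1.58 CPM. Every knockdown library was below every Scrambled one. Axin2 fell by 0.95 (SE 0.19) on the log2 scale under siR-1 (adjusted p = 0.000754) and by 0.83 (SE 0.19) under siR-2 (adjusted p = 0.00156), both short of the minimum of 1. Without Scrambled library 3 or siR-1 library 2 or 3 the siR-1 value passed it, reaching −1.06, and without siR-2 library 1 the siR-2 value did (−1.01). Under IL-17 the Scrambled libraries held 1.95, 1.95 and 1.72 CPM, the siR-1 libraries 0.556, 0.857 and 0.868 CPM and the siR-2 libraries 1.43, 0.981 and 0.825 CPM, with log2 fold changes of −1.31 ± 0.25 (adjusted p = 0.000361) and −0.81 ± 0.25 (adjusted p = 0.0101). Without siR-2 library 3 the latter was no longer called, at −0.66. Under TGF-β the 3 groups overlapped between 0.496 and 0.824 CPM, at −0.27 ± 0.29 (siR-1) and 0.17 ± 0.29 (siR-2) (adjusted p = 0.603 and 0.741).

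**Figure D3:**
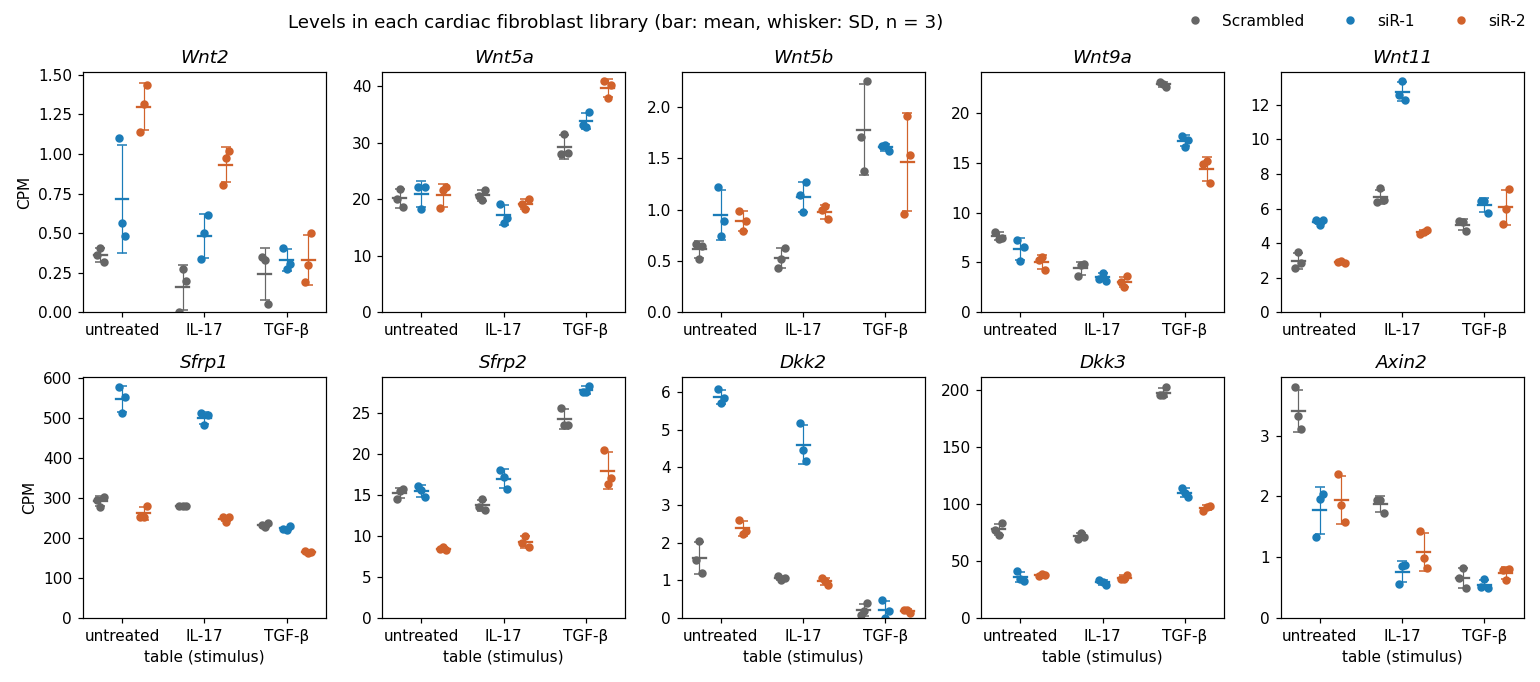
CPM of each member in every CF library (points), with the group mean (bar) and SD (whisker), by table and siRNA, 3 libraries a group. Dkk3 is lower with both siRNAs in each table and highest under TGF-β, Dkk2 and Sfrp1 stand out with siR-1 outside TGF-β, and Axin2 and Dkk2 are lowest under TGF-β.

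TGF-β moved nearly all of the members in Scrambled CFs, in both directions. Each stimulus has a table of its own, so that stimulus and table cannot be told apart in these comparisons, which were made on libraries scaled together. By adjusted p alone, 9 of 10 members differed between TGF-β and untreated Scrambled CFs, 6 up and 3 down, against 57.3% of the 21508 genes tested, and 5 were called, 3 up and 2 down, against 21.5%. The ligands Wnt9a and Wnt5b and the antagonist Dkk3 were called higher. Wnt9a went from 7.34 to 8.09 CPM in untreated to 22.6 to 23.0 CPM in TGF-β CFs, a log2 fold change of 1.58 ± 0.10 (adjusted p = 1.98e-12). Wnt5b went from 0.517 to 0.670 CPM to 1.37 to 2.25 CPM (1.53 ± 0.26, adjusted p = 1.99e-05), and Dkk3 from 73.1 to 82.9 CPM to 195.4 to 202.4 CPM (1.35 ± 0.061, adjusted p = 3.88e-14). Smaller rises were seen for Wnt11 (0.77 ± 0.12), Sfrp2 (0.67 ± 0.071) and Wnt5a (0.53 ± 0.079).

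Axin2 and Dkk2 were called lower under TGF-β. Axin2 was at 3.12 to 3.80 CPM in untreated and at 0.499 to 0.824 CPM in TGF-β Scrambled CFs, a log2 fold change of −2.37 ± 0.23 (adjusted p = 3.18e-09) or 5.18-fold lower. Dkk2 went from 1.195 to 2.035 CPM to 0.073 to 0.390 CPM (−2.88 ± 0.70, adjusted p = 0.00272), and its TGF-β libraries held 8, 20 and 43 estimated counts, around the floor of 18. Sfrp1 fell by 0.33 (SE 0.043, adjusted p = 3.13e-07), and the value for Wnt2 was −0.58 ± 0.48 (adjusted p = 0.324). The same comparison in knockdown CFs gave log2 fold changes of −1.70 ± 0.23 (siR-1) and −1.39 ± 0.23 (siR-2) for Axin2, and of 1.44 ± 0.10 and 1.51 ± 0.11 for Wnt9a. The untreated Scrambled libraries also served for the IL-17 comparison.

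IL-17 moved fewer members. By adjusted p alone 4 differed, 1 up and 3 down, against 13.6% of the 21219 genes tested, and 1, Wnt11, was called, against 1.39%. Wnt11 rose from 2.57 to 3.46 CPM to 6.35 to 7.16 CPM in Scrambled CFs, by 1.17 ± 0.10 on the log2 scale (adjusted p = 1.94e-09), and no library of one group reached the other. In siR-1 and siR-2 CFs it rose by 1.275 ± 0.099 and 0.68 ± 0.10. Axin2 fell by 0.87 (SE 0.22, adjusted p = 0.00691), Wnt9a by 0.79 (SE 0.14, adjusted p = 0.000271) and Dkk2 by 0.58 (SE 0.17, adjusted p = 0.0169), none of them to the minimum of 1. The values of Wnt5a (0.037), Sfrp1 (−0.060) and Dkk3 (−0.12) did not pass.

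Whether the siRNA effect differed with the stimulus was tested as an interaction, the log2 fold change under the stimulus minus that in untreated CFs. A difference between tables that adds equally to all groups on the log2 scale cancels in it. One in the siRNA effect itself, as in knockdown strength, does not, so stimulus and table cannot be told apart here either. No member reached an absolute difference of 1 with an adjusted p of at most 0.05 in edgeR for TGF-β and siR-1 or siR-2, where 2.36% and 5.09% of all genes did, and none did in DESeq2. At an unadjusted p under 0.05 in edgeR there were 5 and 5 members, against 6286 and 8164 of the 21508 genes tested. By adjusted p alone, 3 members differed for siR-1, against 19.6% of all genes, and 4 for siR-2, against 30.2%. The interaction of Sfrp1 with siR-1 was −0.96 ± 0.061 (adjusted p = 4.36e-11), between 0.90 in untreated CFs and −0.052 under TGF-β, and with siR-2 it was −0.34 ± 0.061 (adjusted p = 9.10e-05). For Axin2 the difference was 0.98 ± 0.32 with siR-2 (adjusted p = 0.0213) and 0.68 ± 0.32 with siR-1 (adjusted p = 0.166). The siR-2 value passed 1 without untreated Scrambled library 2 or 3, untreated siR-2 library 1, TGF-β Scrambled library 2 or TGF-β siR-2 library 2, where it reached 1.17. Further differences were 0.27 ± 0.085 for Dkk3 and −0.53 ± 0.17 for Wnt11 with siR-1, and 0.40 ± 0.11 for Wnt5a and 0.42 ± 0.10 for Sfrp2 with siR-2. The interaction of Dkk2 with siR-1, −1.87 ± 0.97, did not pass (adjusted p = 0.233), and without TGF-β siR-1 library 1, the highest of its group, it was −3.11 and called.

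For IL-17 no member passed with either siRNA in edgeR, where 0.189% and 0.165% of all genes were called, and at an unadjusted p under 0.05 there were 2 members for siR-1 (Sfrp2 and Wnt5a) and 3 for siR-2 (Dkk2, Sfrp2 and Wnt11). Over all 21219 genes tested, 2517 and 2055 had an unadjusted p under 0.05. DESeq2 called none at the fold minimum and had 1 member at an adjusted p of at most 0.05, for siR-2. The largest of these differences was that of Dkk2 with siR-2, −0.70 ± 0.23 (adjusted p = 0.183).

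**Figure D4:**
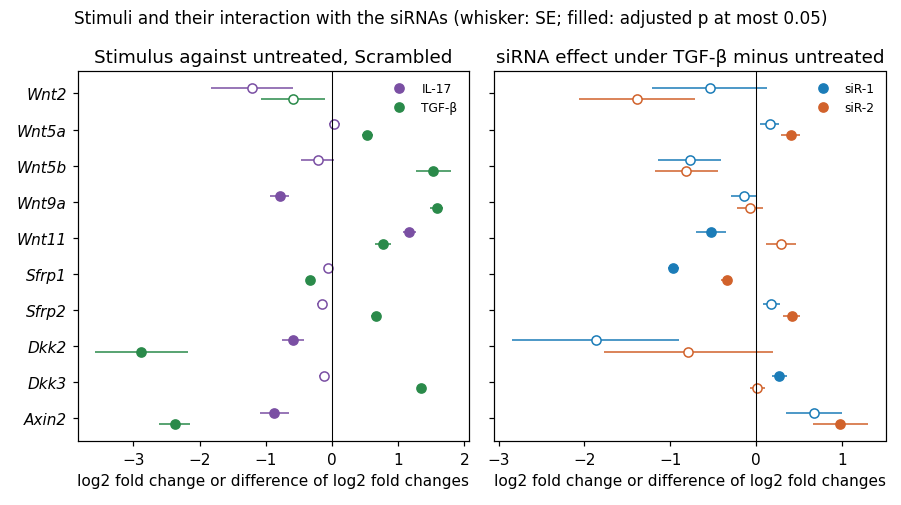
Left, log2 fold change of each member under IL-17 (purple) or TGF-β (green) against untreated Scrambled CFs. Right, difference between the log2 fold change of siR-1 (blue) or siR-2 (orange) under TGF-β and in untreated CFs (3 libraries a group, whiskers are SE, filled points have an adjusted p of at most 0.05). Axin2 and Dkk2 lie furthest to the left under TGF-β at −2.37 and −2.88, and the interaction of Sfrp1 with siR-1 is −0.96.

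In hearts no member passed the test between IAMP-KO and HET mice. Of 10 members 9 entered the test, since Dkk2, at 4 to 15 counts, did not pass the low-count filter. None had an adjusted p of at most 0.05 in edgeR. Of the 16675 genes tested, 0.0% were called with the fold minimum. No member had an unadjusted p under 0.05, which 601 genes of all had. DESeq2 called 2 genes of all and no member. Closest to the threshold was Sfrp1, at 7.49, 7.31, 9.66 and 10.2 CPM in HET and 11.7, 9.91, 10.5 and 9.39 CPM in IAMP-KO hearts, a log2 fold change of 0.26 ± 0.12 (adjusted p = 1.0 in edgeR). The groups overlapped. Dkk3 was at 9.79, 8.00, 25.2 and 23.7 CPM in HET and 15.7, 8.35, 17.9 and 19.8 CPM in IAMP-KO hearts (−0.11 ± 0.46). Wnt5b had the largest fold change, −0.41 ± 0.25, with 0.881 to 1.76 CPM in HET and 0.886 to 1.26 CPM in IAMP-KO hearts. Axin2 was at 3.96 to 5.69 CPM and 4.43 to 5.67 CPM (−0.012 ± 0.13), Wnt9a at 5.89 to 6.65 CPM and 6.08 to 6.64 CPM (−0.00097 ± 0.078) and Wnt11 at 6.61 to 7.67 CPM and 7.47 to 8.25 CPM (0.15 ± 0.080). The log2 fold changes of Wnt2, Wnt5a and Sfrp2 were −0.11 ± 0.40, 0.019 ± 0.12 and 0.055 ± 0.19. The fibroblast markers summed to 624.1 to 927.6 CPM in HET and 784.7 to 833.4 CPM in IAMP-KO hearts, against 53360.0 to 58230.0 and 52800.0 to 55350.0 CPM of cardiomyocyte markers. In the 5 pathway lists described next, 0 genes were called in hearts in edgeR or DESeq2, with 1 of 19 receptors, 2 of 24 transducers, 1 of 6 ligands, 1 of 7 antagonists and 0 of 13 targets at an unadjusted p under 0.05.

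The rest of the WNT pathway was followed in 5 gene lists. In each siRNA or stimulus comparison the called genes with the largest rise and fall are named, and any others, those of the interactions included, were picked after their values were seen. Tcf7, Lef1, Notum, Apcdd1, Lgr5, Rnf43, Znrf3 and Dkk1 each stand in 2 lists, so that their calls are counted in both. The background shares of called genes are those given for the members above. At an unadjusted p under 0.05 in edgeR there were 9001 of 19669 genes for siR-1 in untreated CFs. Under TGF-β siR-1 had 6466 of 19891, and IL-17 against untreated had 5014 of 21219. Among the receptors and co-receptors, 21 of 23 genes were tested in untreated CFs. None was called with siR-1 in edgeR or DESeq2 (15 at an unadjusted p under 0.05), and 2 were called with siR-2, both lower, namely Lgr6, a receptor of R-spondins (−1.41), and Ror2, a WNT5A receptor (−1.31). Under IL-17 8 of 22 were called with siR-1, 1 up and 7 down, and 7 with siR-2, 2 up and 5 down. The largest rise and fall with siR-1 were those of Ror1 (0.62) and the co-receptor Ptk7 (−1.09), and Lgr4 rose most with siR-2 (0.65). The largest fall with siR-2 was fitted for Lgr5, which was listed at 0 in its 3 siR-2 libraries and at 0.0 to 0.181 CPM in Scrambled. Under TGF-β 1 of 21 was called with siR-1 (Ror2, −0.59) and 6 with siR-2, all lower and led by Fzd5 (−0.78). TGF-β itself went with 1 receptor up, Fzd2 from 36.1 to 38.1 CPM to 174.2 to 181.9 CPM (2.27), and 4 down, led by the ligase Rnf43 (−1.71). For IL-17 none was called in edgeR or DESeq2 (10 at an unadjusted p under 0.05). The interaction of TGF-β with siR-2 was called for Lgr6 (1.48) and Ror1 (−1.03). Medians of this list over the 6 siRNA comparisons were between −0.23 and −0.13, against −0.020 to 0.013 over all genes.

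Of 18 β-catenin target genes, 15 to 17 were tested with the siRNAs, and more were called lower than higher. The calls over all genes also leaned down, with 513 against 423 up for siR-1 and 1423 against 672 up for siR-2 in untreated CFs, 1586 against 1111 and 2718 against 1605 under IL-17, and 1082 against 412 for siR-2 under TGF-β, though not for siR-1 there (380 against 487). In untreated CFs 3 of 16 were called with siR-1, all down, and 5 with siR-2, 1 up and 4 down. Ccnd1, which encodes cyclin D1, had the largest fall in both, from 1103.0 to 1144.0 CPM in Scrambled to 299.0 to 327.5 CPM in siR-1 and 262.1 to 293.3 CPM in siR-2 cells (log2 fold changes of −1.85 and −2.05), while Nkd2, a WNT feedback inhibitor, rose with siR-2 (1.11). Under IL-17 5 of 17 were called with siR-1, 2 up and 3 down, and 11 with siR-2, 2 up and 9 down. Ccnd1 fell by 1.94 with siR-1, the largest fitted fall with siR-2 was that of Lgr5, at 0 in its siR-2 libraries as said, and Nkd2 had the largest rise with each (0.98 and 1.11). Under TGF-β 2 of 15 were called with siR-1 and 4 with siR-2, all down, with Ccnd1 (−1.02) and Nkd1 (−1.19) in front. TGF-β against untreated gave 4 of 16 up, led by Ccn5 (2.62), and 7 down, among them Ccnd1 (−3.10) and, with the largest fitted fall, Notum, at 0.770 to 1.27 CPM in untreated and 0.0 to 0.063 CPM in TGF-β CFs. IL-17 against untreated gave 2 lower, Fgf18 (−1.18) and Bambi (−1.16). The interaction of Nkd2 with TGF-β was −1.02 (siR-1) and −1.24 (siR-2), and that of Fgf18 was −1.355 with siR-2. Medians over the 6 siRNA comparisons were between −0.625 and −0.11. Of the mural markers, 2 of 8 were called with siR-1 and 3 with siR-2 in untreated CFs, all lower, and Tnnt2 fell with both (−1.08 and −1.66). Their part in these values was not tested.

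Among the other 14 antagonists and R-spondins, which potentiate WNT signals, Rspo3 had the largest rise in every siRNA comparison. It stood at 0.361 to 0.488 CPM in untreated Scrambled CFs, 0.627 to 1.16 CPM in siR-1 and 1.35 to 1.75 CPM in siR-2 cells, and at 3.38 to 3.79 CPM in TGF-β Scrambled CFs. Its log2 fold changes were 1.12 and 1.95 in untreated CFs, 1.15 and 1.97 under IL-17, 0.84 and 1.33 under TGF-β, 1.625 for IL-17 and 3.14 for TGF-β against untreated. The largest falls were those of Sfrp4 with siR-1 in untreated and IL-17 CFs (−1.23 and −1.115), of Rspo2 with siR-2 in the same tables, where it was at 0.567 to 1.22 CPM in untreated Scrambled and 0.0 to 0.141 CPM in untreated siR-2 CFs, and of Apcdd1 with siR-2 under TGF-β (−0.99). In untreated CFs 2 of 7 were called with siR-1 and 3 with siR-2, under IL-17 2 and 5 of 6, and under TGF-β 1 and 2 of 8. TGF-β against untreated gave 4 of 9 up and 2 down, with Rspo1 listed at 0 in the untreated Scrambled libraries and at 0.522 to 0.912 CPM under TGF-β, and Rspo2 listed at 0 under TGF-β. The interaction of TGF-β with siR-1 was called for Rspo1, for which the siR-1 libraries held 0.0 to 0.062 CPM untreated and 0.450 to 0.741 CPM under TGF-β.

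The list of other ligands and secretion factors has 17 genes, among them Notum, which is neither, and 9 to 12 were tested in a CF comparison. With siR-1 and siR-2, 1 and 2 were called in untreated CFs, 1 and 4 under IL-17, and 1 and 1 under TGF-β. The largest falls were those of Notum (−1.03) and Wnt10a (−1.495) in untreated CFs, Wnt7a (−0.75) and Notum (−1.34) under IL-17, and Wnt7a (−1.06) and Wnt16 (−1.02) under TGF-β, each with siR-1 and siR-2 in that order, and the 1 rise was that of Porcn, the acyltransferase of WNT ligands, with siR-2 under IL-17 (0.81). TGF-β against untreated gave 4 of 12 up and 3 down, with Wnt7b listed at 0 in untreated Scrambled CFs and at 0.054 to 0.173 CPM under TGF-β, and Porcn called too (1.69). Of the 24 transducers, all tested, Daam2, a Dishevelled-binding formin, had the largest fall with siR-2 in each table (−1.86, −0.98 and −0.97) and Tcf7 that with siR-1 in untreated and IL-17 CFs (−1.24 and −1.10), where 2 and 3 genes were called, and Bcl9 rose with siR-1 under IL-17 (0.91). With siR-2, 1, 4 and 1 were called in untreated, IL-17 and TGF-β CFs. TGF-β against untreated gave 1 up, Vangl2 (1.22), and 5 down, led by Tcf7 (−1.75). None was called with siR-1 under TGF-β (11 at an unadjusted p under 0.05) or for IL-17 against untreated (10), in edgeR or DESeq2. For IL-17 the ligand and secretion list had 0 called in edgeR (2 at an unadjusted p under 0.05) and 1 in DESeq2.

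Across the 27 CF libraries, the genes most like a member in pattern were found by Pearson's r of log2(CPM + 0.5) after the mean of each table was subtracted, among 13319 genes of at least 1 CPM on average. The libraries share tables and controls, and the values are a description. Sfrp1 was most like Npr3 (0.984), Ccn5 (0.979) and Rtn4r (0.967), and Dkk3 most like Adamtsl3 (0.984), Htra1 (0.979) and Wdr6 (0.972). For Dkk2 these were Col12a1 (0.955), Trim46 (0.937) and Galnt10 (0.934), for Sfrp2 Ildr2 (0.966), Atoh8 (0.961) and Cdc42bpg (0.954), and for Wnt11 Gabarapl1 (0.940), Zfp51 (0.934) and S1pr2 (0.932). Axin2 was most like Ppp2r5a (0.893), Plat (0.885) and Ubash3b (0.877), Wnt9a like Ppp5c (0.880), Wwc1 (0.871) and Syn2 (0.870), Wnt5b like Polr3a (0.826), Tmem184c (0.783) and Ubap2 (0.766), and Wnt5a like Nhlrc2 (0.795), Rnf150 (0.750) and Trip11 (0.720). Wnt2 was under 1 CPM and was left out. Among the members themselves, the pairs highest in r were Wnt11 and Dkk2 (0.861) and Sfrp1 and Dkk2 (0.852), and the lowest was Wnt5b and Axin2 (−0.763).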

How the data were processed

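RNA from 27 CF libraries and 8 hearts was sequenced by the authors, and the tools named for the reads are Cutadapt 3.7 for trimming, FastQC 0.11.9 for quality, HISAT2 2.2.1 for alignment (GRCm38) and StringTie 2.1.4 for quantification. The deposited CF tables hold estimated counts derived by the authors from coverage, in which a gene seen in 1 library alone most often reads 6, so that 18 was taken as the floor of 3 read pairs. The deposited heart table holds raw read counts, with a floor of 3. Depth limits precision only for scarce members, and floors cover counting error only.

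Members were matched by symbol, and members and lists were chosen with earlier results of these data known. Each table was fitted with edgeR 4.0.16 in R 4.3.3 (TMM, filterByExpr by group, robust quasi-likelihood test), untreated and stimulus tables were also fitted together for stimulus effects and interactions, and p values were Benjamini-Hochberg adjusted over all genes of a fit. SE is the absolute log2 fold change over the square root of F. The minimum log2 fold change of 1 for untreated CFs and the 1.5-fold minimum for IL-17 CFs follow the methods of the study, and the latter was carried over to TGF-β CFs. CPM values used TMM factors over the 27 CF libraries or the 8 hearts, and lengths were merged exons of GENCODE vM21. Named were all members, the targeted gene, the called gene with the largest rise and fall of each list in each comparison, and the 3 genes most like a member in pattern. Alternatives were RLE size factors, other low-count filters, DESeq2 1.42.0, division by 6, only the groups compared, a replicate block, other thresholds and libraries left out. The fits were also run on simulated counts with changes between groups, at a minimum log2 fold change of 1. Interactions, the 1.5-fold minimum and the steps of the estimated counts were not simulated. Heart libraries could be tied to a group but not to a replicate.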

Additional observations from a re-analysis of the deposited data

Results flagged for a closer look

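The siRNA effect differed between TGF-β and untreated CFs for 3 of 10 members with siR-1, against 19.6% of all genes, and 4 with siR-2, against 30.2%. These counts are near the shares of all genes, and with the fold minimum no member was called. The test was of the difference itself (edgeR interaction term, adjusted p of at most 0.05), and stimulus and table cannot be told apart in it. With siR-1 the difference of log2 fold changes was −0.96 for Sfrp1, −0.53 for Wnt11 and 0.27 for Dkk3. With siR-2 it was 0.98 for Axin2, 0.42 for Sfrp2, 0.40 for Wnt5a and −0.34 for Sfrp1. The knockdown itself differed in the same direction for both siRNAs, with interactions of 0.73 and 1.025 (log2) for 4930523C07Rik, and its part in these differences was not tested.

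In HET hearts, 1 library stood apart for Wnt9a at 5.89 CPM, below the others at 6.52 to 6.65 CPM by Dixon's criterion. Among the 20 groups of 4 checked, chance gives about 1 in 20.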

How the results depend on the processing

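Of 159 member values, 91 lay beyond 2 SE of 0 and 0 of these changed sign under any alternative, while 33 of the 68 within 2 SE of 0 changed sign under at least 1. RLE size factors, DESeq2, other low-count filters, division of the estimated counts by 6 and fits of only the groups compared left each count of called members within 1.5 times its value. Requiring the adjusted p alone gave 6 and 7 members in untreated CFs (siR-1 and siR-2), against 39.9% and 49.3% of all genes. Under IL-17 it gave 8 for siR-2 (50.6%), and under TGF-β 3 and 5 (23.1% and 29.9%). Against untreated it gave 4 for IL-17 (13.6%) and 9 for TGF-β (57.3%). For the TGF-β interactions with siR-1 and siR-2 it gave 3 and 4 (19.6% and 30.2%). Between siR-2 and siR-1 it gave 6 in untreated CFs and 5 under TGF-β. There the share of all genes by adjusted p alone was not computed. At an unadjusted p under 0.05 in edgeR there were 9873 of 19669 and 6678 of 19891 genes. Lowering the minimum from 2-fold to 1.5-fold gave 6, 5 and 5 in untreated CFs (12.1%, 21.1% and 15.9% of all genes), 3 for IL-17 against untreated (3.08%) and 1 and 1 for the TGF-β interactions (5.61% and 11.6%). Raising it from 1.5-fold to 2-fold gave 2 for siR-2 under IL-17 (11.3%), and 0, 1 and 0 under TGF-β (1.37%, 2.95% and 1.16%).

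With 1 library left out, the counts ranged from 2 to 4 for siR-1 in untreated CFs (without siR-1 library 2 or 3), from 3 to 6 for siR-2 under IL-17 (without siR-2 library 1 or 3), from 0 to 1 for siR-2 against siR-1 under TGF-β (without siR-2 library 2), from 0 to 1 for the TGF-β interaction with siR-1 (without TGF-β siR-1 library 1) and from 0 to 2 for that with siR-2 (without untreated Scrambled library 2 or 3, untreated siR-2 library 1, TGF-β Scrambled library 2 or 3 or TGF-β siR-2 library 2). Wnt2 under IL-17 was called with siR-1 too in DESeq2 (1.61), after division by 6 (1.46) and without Scrambled library 1, and its siR-2 call was lost in a fit of only the groups compared (2.535). Among the pathway lists, the transducers called for siR-2 under IL-17 went from 4 to 1 in DESeq2. The causes were not tested.

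Same-numbered CF libraries of a table did not deviate together (median r of 0.019, −0.018 and −0.002 in untreated, IL-17 and TGF-β CFs). No pairing by number was detected, though with 3 libraries a group a weak pairing could not be seen. A replicate block moved 1 count, that of the TGF-β interaction with siR-2, to 1 (Axin2, 1.00). For hearts, no paired analysis was possible because the columns carry no replicate numbers. Depth limits Wnt2, and Dkk2 under TGF-β and in hearts. It also limits Axin2 under TGF-β, at 54 to 90 estimated counts. Wnt5b is limited too, at 62 to 81 and 52 to 76 estimated counts in untreated and IL-17 Scrambled CFs and 21 to 42 counts in hearts.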
